A study of Mus musculus with 74 samples.

Results

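Lung tumours whose virus carried 1 guide RNA against Apc and 1 against Rnf43 were compared with tumours that carried only 1 of these guides and with tumours that carried none. Members were found by the guide names in both places of each construct: Apc with Rnf43, in either order (2795 tumours), Apc with an inert guide (3789), Rnf43 with an inert guide (7111), and inert guides in both places (2973). These 16668 tumours were part of 378754 in the deposited table. Inert guides were those named safe, NT and EGFP, and constructs that repeat 1 guide were not used.

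Apc is a core part of the complex that marks β-catenin for destruction, and its loss switches Wnt signalling on inside the cell. Rnf43 is a membrane ubiquitin ligase that removes Frizzled receptors from the cell surface, and its loss makes cells more sensitive to Wnt ligands. Both genes therefore restrain the same pathway, Rnf43 at the receptor and Apc downstream of it, and they were the only Wnt regulators of this kind among the 17 genes of the pool.

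All mice shared the alleles of the KT background, which include the Cre-dependent red reporter R26LSL-Tomato, and all received the Lenti-U6BC-sgDbl/Cre pool, in which each virus carries Cre, 2 guides and a barcode that marks its tumour. KT mice (9) had no Cas9 and could not edit. KT_H11_Cas9 mice (45, called H11-Cas9 mice here) carried Cas9 without a stop cassette, and KT_H11_LSL-Cas9 mice (20, called LSL-Cas9 mice here) made Cas9 only after Cre had removed one, as read from the genotype names; the labels' breeding text writes LSL for both. Lungs were taken about 3 months after infection, and each mouse gave 1 library, in which barcode and guides were read from 32 µg of lung DNA. Cas9 edits in any cell type that Cre reaches, ages and viral doses are not known here, and whether a given tumour lost its target was not measured.

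A KT mouse held from 13191 to 41166 tumours of all constructs, an H11-Cas9 mouse from 1013 to 5364 and an LSL-Cas9 mouse from 4 to 4941. LSL-Cas9 mice 3 and 7 had under 20 tumours and none of the 4 classes. The smallest tumour listed had from 50.4 to 56.2 cells in a KT mouse, from 50.1 to 105 in an H11-Cas9 mouse and from 50.4 to 369 in an LSL-Cas9 mouse, and mice also differed in the spike-in total used for calibration (100000 or 300000 cells) and in the letters that begin their names. All LSL-Cas9 mice had the higher total and letters found in no other group, so their genotype and their letters cannot be told apart. KT mice of the lower total were all named SL (5) and those of the higher total all LA (4). H11-Cas9 mice of the lower total were all named LA (25), and those of the higher total LA (14) or CM (6).

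The first question was whether a second hit in the pathway changed tumour size. In H11-Cas9 mice, Rnf43+inert and Apc+inert tumours were slightly larger than inert/inert tumours, by geometric mean cells within a mouse, and for Apc+Rnf43 tumours no difference from inert/inert or from either single passed the test. In the typical H11-Cas9 mouse the geometric mean was 180 cells for inert/inert (median of 45 mice, from 108 to 394), 199 for Rnf43+inert (122 to 486), 205 for Apc+inert (102 to 717) and 194 for Apc+Rnf43 (78.1 to 812). The ranges of the 4 classes overlapped almost wholly. The difference between the pair and inert/inert within a mouse also varied widely, from -0.88 to 1.26 on the log2 scale.

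Within mice, Rnf43+inert exceeded inert/inert by 0.15 ± 0.051 on the log2 scale (mean ± SE over 45 mice, higher in 31), with an adjusted p of 0.00903 in a 2-sided sign-flip permutation test. Apc+inert exceeded it by 0.16 ± 0.069 (higher in 30 of 45), with an adjusted p of 0.0367 in the same permutation test. These calls were common in the pool, where 12 of 17 single genes passed (70.6%). Apc+Rnf43 differed from inert/inert by 0.10 ± 0.078 (higher in 25 of 45; 95% interval -0.055 to 0.26), and the permutation test gave an adjusted p of 0.277, while 43.5% of the 92 gene pairs tested passed.

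Against its own singles no gain of the pair was detectable. Apc+Rnf43 minus Apc+inert was -0.059 ± 0.079 (adjusted p = 0.719, permutation test, 45 mice; 95% interval -0.22 to 0.10). Apc+Rnf43 minus Rnf43+inert was -0.047 ± 0.070 (adjusted p = 0.732, permutation test, 45 mice; 95% interval -0.19 to 0.093). Of all 180 such steps from a single gene to a pair, 16.7% passed. The interaction, the effect of the pair minus the sum of both single effects in the same mouse, was -0.21 ± 0.093 (unadjusted p = 0.0276, adjusted p = 0.0838, permutation test; below 0 in 27 of 45 mice). Across the 88 pairs tested the median interaction was also -0.21 and 28.4% passed, so that Apc+Rnf43 stood 44th of 88 from the top.

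The single-gene calls on the geometric mean depended on the summary, the inert guides and the mice. With safe guides alone as the inert class neither passed, at 0.082 ± 0.092 for Apc+inert and 0.070 ± 0.057 for Rnf43+inert (adjusted p = 0.430 and 0.386, permutation test), and the interaction was -0.086 ± 0.11. For Apc+inert the call ended without H11-Cas9 mouse 38, which had only 5 inert/inert tumours (0.13, adjusted p = 0.0677, permutation test), and in mice of the 300000-cell total the difference was -0.0049 ± 0.083 against 0.29 ± 0.098 in mice of the 100000-cell total. Rnf43+inert gave 0.20 ± 0.071 in mice of the lower total and 0.081 ± 0.070 in mice of the higher one, and Apc+Rnf43 gave 0.21 ± 0.11 and -0.028 ± 0.11. By the median in place of the geometric mean, the 3 differences were -0.016 for Apc+inert, 0.028 for Rnf43+inert and -0.038 for the pair, and none passed. Among tumours of at least 200 cells the pair exceeded inert/inert by 0.30 (adjusted p = 0.0117, permutation test) and its interaction was -0.40 (adjusted p = 0.0287, permutation test).

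**Figure D1:**
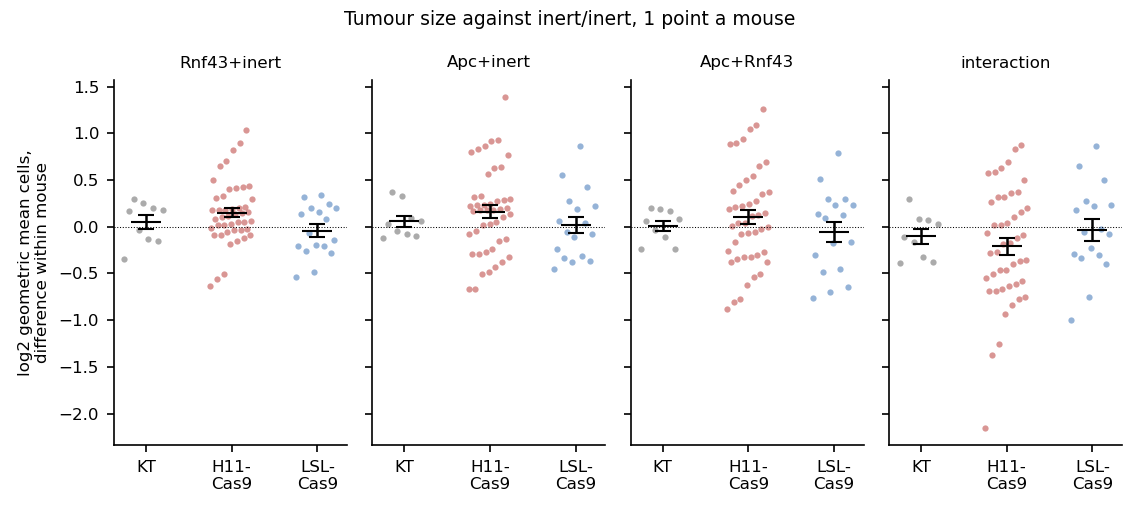
Difference from inert/inert in log2 geometric mean cells (y axis) for Rnf43+inert, Apc+inert and Apc+Rnf43, and the interaction, with 1 point a mouse and bars for the mean ± SE. H11-Cas9 points spread widely around 0 in each panel, and the mean of the pair (0.10) lies no higher than those of the singles (0.15 and 0.16).

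In LSL-Cas9 mice, none of these geometric mean differences passed. Apc+inert differed from inert/inert by 0.018 ± 0.089 and Rnf43+inert by -0.041 ± 0.066 (17 mice), where 11.8% of single genes passed. The pair differed by -0.056 ± 0.11 from inert/inert, where 6.67% of pairs passed, by -0.067 ± 0.087 from Apc+inert and by -0.010 ± 0.11 from Rnf43+inert (18 mice), where 3.39% of steps passed. Its interaction was -0.033 ± 0.12, with 0% of the 87 interactions called and 4 at an unadjusted p under 0.05 in the permutation test. In KT mice, which measure the background of the same constructs without cutting, the pair differed from inert/inert by 0.0081 ± 0.057 (9 mice, exact adjusted p = 0.962). KT interaction was -0.10 ± 0.079, and 0% of singles, pairs, steps or interactions passed in KT (2, 5, 11 and 7 at an unadjusted p under 0.05 in the exact test). With 9 KT mice the exact p cannot go below 0.0039, which made a pass after adjustment hard to reach. The 0% in KT is therefore not comparable with the shares in H11-Cas9 mice. Set against KT directly, the size effect of the pair differed by 0.094 ± 0.097 in H11-Cas9 mice (adjusted p = 0.590 over 6 effects, studentised permutation test) and by -0.064 ± 0.12 in LSL-Cas9 mice (adjusted p = 0.887). Neither single passed against KT in H11-Cas9 mice, at 0.10 ± 0.091 for Apc+inert and 0.10 ± 0.089 for Rnf43+inert. The interaction differed from KT by -0.11 ± 0.12 there (adjusted p = 0.590 for all 3, studentised permutation test). Within KT mice the singles stood 0.060 ± 0.060 (Apc+inert) and 0.049 ± 0.074 (Rnf43+inert) above inert/inert.

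In the pooled tumours of Cas9 mice the classes lay closer together at the median than at the upper end. Pooled over H11-Cas9 mice, the medians were 153 cells for Apc+Rnf43, 152 for Apc+inert, 168 for Rnf43+inert and 164 for inert/inert. Over LSL-Cas9 mice they were 155, 137, 154 and 164 cells. Apc+inert was thus lower there at the median, at 0.837 of inert/inert (0.787 to 0.859 without any 1 mouse). In H11-Cas9 mice the pooled 90th percentile, as a ratio to inert/inert, was 1.40 for the pair, 1.37 for Apc+inert and 1.26 for Rnf43+inert. At the 95th percentile the ratio to inert/inert was 1.77 for the pair, 1.98 for Apc+inert and 1.50 for Rnf43+inert. This order differed between mice of the 2 spike-in totals, and the difference was not tested. The 95th percentile ratios were 2.32, 2.89 and 1.50 in mice of the 100000-cell total and 1.47, 1.23 and 1.62 in mice of the 300000-cell total. At the 99th percentile of all H11-Cas9 mice the ratio was 2.38, 5.74 and 2.44, so that the pair reached 0.414 of the Apc+inert level there. Leaving out 1 mouse at a time moved the 99th percentile ratio of the pair between 2.23 and 2.77 and that of Apc+inert between 4.63 and 6.58, where few tumours of a class lie above the percentile. In LSL-Cas9 mice the 99th percentile ratio was 5.95 for the pair, 15.5 for Apc+inert and 1.55 for Rnf43+inert, again with the pair at 0.383 of Apc+inert. In KT mice these ratios were 0.949, 1.01 and 0.990.

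**Figure D2:**
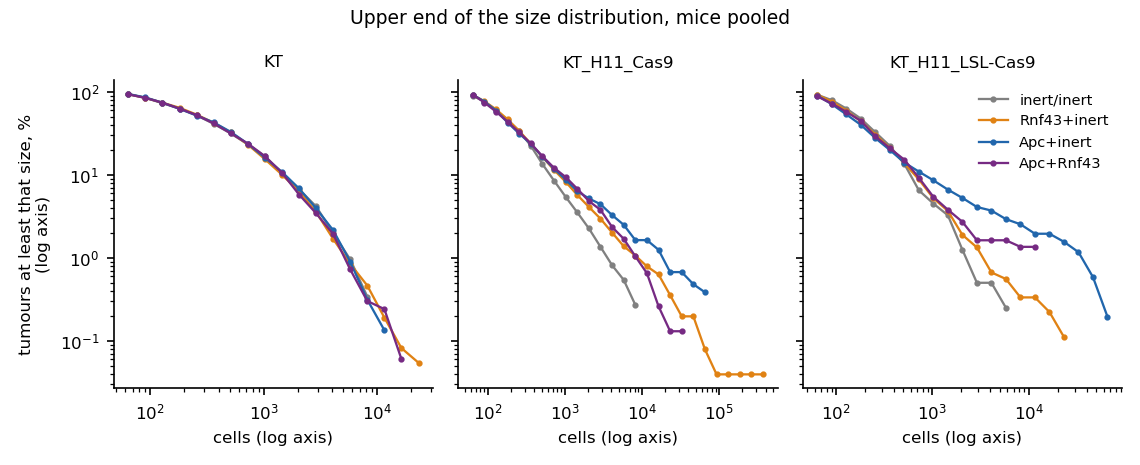
Percent of tumours (y axis, log) that reach at least a given number of cells (x axis, log), mice pooled, for the 4 classes in each genotype. The 4 curves run together in KT, while with Cas9 the Apc+inert curve extends farther right than the Apc+Rnf43 curve in both groups, to 90582 against 40596 cells in H11-Cas9 mice.

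Very large tumours were counted directly. Of 1107 inert/inert tumours in H11-Cas9 mice, 0 reached 10000 cells, which allows a share of up to 0.271% by the limit of 3 counts, or 0.333% by the exact interval. Of 767 Apc+Rnf43 tumours 7 did (0.913%, exact 95% binomial interval 0.368 to 1.87%), in 6 mice. Of 1041 Apc+inert tumours 17 did (1.63%, 0.954 to 2.60%), in 13 mice, and of 2537 Rnf43+inert tumours 24 did (0.946%, 0.607 to 1.40%), in 19 mice. The intervals of the pair and of both singles overlapped; they cover counting error only.

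Shares of large tumours were adjusted over 5 contrasts of these classes at each bar in each group, not over the genes or pairs of the pool. How often other genes and pairs pass at these bars was not tested, so these calls are not comparable with those above. Within H11-Cas9 mice the share of tumours of at least 10000 cells exceeded that of inert/inert by 1.60 ± 0.42 percentage points for Apc+inert (adjusted p = 0.00055, permutation test over mice). It exceeded it by 0.933 ± 0.19 points for Rnf43+inert (adjusted p = 0.00015, permutation test), and for the pair by 0.825 ± 0.35 points, which missed the threshold (adjusted p = 0.0520, permutation test). No inert/inert tumour reached this bar, which was chosen after seeing the data, so no mouse could fall below 0. These 3 p-values therefore follow how many mice held such a tumour (13, 19 and 6), and they do not rank the pair against the singles. The pair was below Apc+inert by 0.776 ± 0.52 points, a difference within its error (adjusted p = 0.178, permutation test; lower in 12 mice, higher in 4, equal in the others). At a lower bar of 1000 cells the mean share in H11-Cas9 mice was 8.92% for the pair, 8.96% for Apc+inert, 8.33% for Rnf43+inert and 5.42% for inert/inert, and all 3 exceeded inert/inert (adjusted p = 0.0138, 0.00930 and 0.00590, permutation test, 45 mice). The pair and Apc+inert differed there by -0.045 ± 1.5 points.

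In LSL-Cas9 mice 5 of 369 Apc+Rnf43 tumours reached 10000 cells (1.36%, exact interval 0.441 to 3.13%), 12 of 513 Apc+inert (2.34%, 1.21 to 4.05%), 3 of 900 Rnf43+inert (0.333%, 0.0688 to 0.971%) and 0 of 400 inert/inert, which allows up to 0.75% by 3 counts, or 0.918% by the exact interval. At 1000 cells Apc+inert exceeded inert/inert by 4.32 ± 1.4 points (adjusted p = 0.0328 over 5 contrasts, permutation test, 17 mice) and the pair by 0.985 ± 1.8 points. The pair was 3.15 ± 1.4 points below Apc+inert there (unadjusted p = 0.0453, adjusted p = 0.113, permutation test; lower in 11 of 18 mice). In KT mice 4 of 1659, 4 of 2235, 11 of 3674 and 1 of 1466 tumours of the 4 classes reached 10000 cells.

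The largest Apc+Rnf43 tumour of the H11-Cas9 mice had 40596 cells and was made with Rnf43_V2 in place 1 and Apc_V2 in place 2. The largest Apc+inert tumour had 90582 cells and the largest inert/inert tumour 9625 cells. A single Rnf43+inert tumour of 511637 cells in mouse 22 held 24.9% of all cells of that class.

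The arithmetic mean of cells within a mouse, which weights large tumours, was tried as another summary. With it all 3 classes exceeded inert/inert in H11-Cas9 mice, and the pair lay below Apc+inert in LSL-Cas9 mice. In H11-Cas9 mice the arithmetic mean was 287 cells for inert/inert (median of mice, from 130 to 849), 419 for Rnf43+inert (189 to 7734), 474 for Apc+inert (123 to 4431) and 442 for Apc+Rnf43 (88.1 to 2558). On this scale Apc+inert exceeded inert/inert by 0.92 ± 0.22 in log2 (1.89-fold; adjusted p = 0.00034, permutation test) and Rnf43+inert by 0.74 ± 0.16 (1.67-fold; adjusted p = 8.5e-05, permutation test), where 64.7% of single genes passed. Apc+Rnf43 exceeded inert/inert by 0.45 ± 0.14 (1.36-fold; higher in 30 of 45 mice; adjusted p = 0.00669, permutation test), where 54.3% of pairs passed. Mice scattered widely, and the ranges of all classes overlapped.

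Relative to Apc+inert the pair was -0.47 ± 0.22 on the log2 arithmetic scale (0.721-fold; unadjusted p = 0.0397, adjusted p = 0.105, permutation test), where 27.8% of steps passed. Relative to Rnf43+inert it was -0.29 ± 0.20 (adjusted p = 0.293, permutation test), and -0.18 without mouse 22, which held the tumour of 511637 cells. The interaction was -1.21 ± 0.31 (adjusted p = 0.00176, permutation test; above 0 in 13 of 45 mice), so that the pair reached 0.432 of the product of both single effects. Negative interactions were frequent on this scale: 40.9% of 88 passed, 35 below 0 and 1 above, with a median of -0.76. Leaving out any 1 mouse kept the arithmetic interaction between -1.30 and -1.04. It was -1.64 ± 0.49 in mice of the 100000-cell total and -0.67 ± 0.31 in mice of the 300000-cell total, and the pair minus Apc+inert was -0.82 ± 0.35 and -0.040 ± 0.23. Against inert/inert the 2 totals gave 1.47 ± 0.31 and 0.23 ± 0.22 for Apc+inert (unadjusted p = 0.00011 and 0.301, permutation test). They gave 0.83 ± 0.25 and 0.63 ± 0.18 for Rnf43+inert (unadjusted p = 0.00113 and 0.00237, permutation test) and 0.65 ± 0.20 and 0.19 ± 0.20 for the pair (unadjusted p = 0.00286 and 0.352, permutation test). The part of the spike-in total in these values was not tested.

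In LSL-Cas9 mice the gap between the pair and Apc+inert passed the test on the arithmetic scale. The mean was 245 cells for inert/inert (median of mice, from 148 to 656), 354 for Rnf43+inert (177 to 758), 751 for Apc+inert (136 to 3246) and 343 for Apc+Rnf43 (127 to 1251). Apc+inert exceeded inert/inert by 1.30 ± 0.30 (2.47-fold; 13 of 17 mice; adjusted p = 0.00586, permutation test), Rnf43+inert by 0.27 ± 0.14 (adjusted p = 0.149) and the pair by 0.37 ± 0.27 (adjusted p = 0.304), where 23.5% of singles and 45.6% of pairs passed. The pair was below Apc+inert by 0.88 ± 0.27 in log2 (0.544-fold; lower in 14 of 18 mice; adjusted p = 0.0434, permutation test), where 12.4% of steps passed. The interaction was -1.20 ± 0.24 (below 0 in 14 of 17 mice; adjusted p = 0.0106, permutation test), and it was 1 of 3 called among 87 (3.45%), where the median was -0.53. Without any 1 mouse the step lay between -1.0 and -0.75. Its unadjusted p then ran from 0.0015 to 0.0107, beside 0.00525 with all 18 mice (permutation test). These were not adjusted, so whether the call holds without each mouse is not known. In KT mice the arithmetic values were 0.0097 ± 0.089 for the pair, -0.054 ± 0.077 for the pair minus Apc+inert and -0.14 ± 0.10 for the interaction, and 0% of singles, pairs, steps and interactions passed (2, 5, 18 and 9 at an unadjusted p under 0.05 in the exact test). The lower limit on p with 9 KT mice (0.0039) made a pass hard to reach here too.

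**Figure D3:**
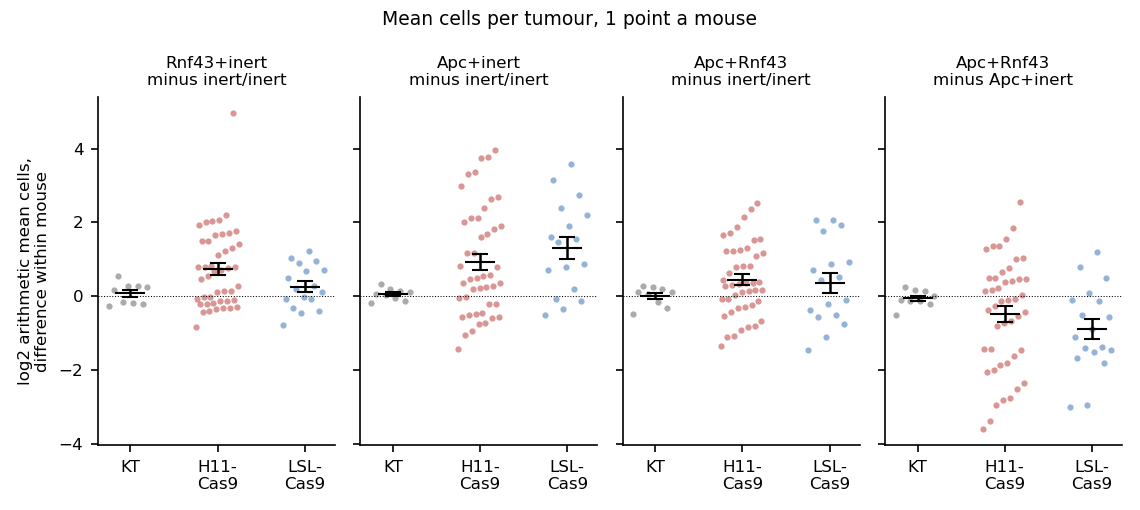
Difference in log2 arithmetic mean cells per tumour within a mouse (y axis), 1 point a mouse, bars for the mean ± SE. In H11-Cas9 mice the means are 0.74 for Rnf43+inert, 0.92 for Apc+inert and 0.45 for Apc+Rnf43 against inert/inert, and the right panel shows the pair below Apc+inert by 0.88 in LSL-Cas9 mice.

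The 90th percentile within a mouse, taken where each class held 10 tumours or more, gave the same order of means in H11-Cas9 mice. Tumours pooled over these mice gave another order at this percentile, with the pair highest at 1.40 times inert/inert. Apc+inert exceeded inert/inert by 0.49 ± 0.17 (44 mice; adjusted p = 0.0119, permutation test) and Rnf43+inert by 0.36 ± 0.12 (adjusted p = 0.00947, permutation test), where 64.3% of single genes passed. The pair exceeded inert/inert by 0.21 ± 0.15 (41 mice; adjusted p = 0.221, permutation test), where 63.8% of pairs passed. It was -0.31 ± 0.20 from Apc+inert and -0.17 ± 0.11 from Rnf43+inert (adjusted p = 0.310 and 0.315, permutation test), where 18% of steps passed. The interaction was -0.69 ± 0.21 (adjusted p = 0.00893, permutation test; above 0 in 10 of 41 mice), in a table where 54.7% of 53 interactions passed. At the 75th percentile this interaction was -0.18, and in mice of the 300000-cell total the 90th percentile values were -0.43 for the interaction, 0.22 for Apc+inert and 0.29 for Rnf43+inert; none of these passed. In LSL-Cas9 mice the pair differed from inert/inert by 0.032 ± 0.22 at the 90th percentile (14 mice) and in KT mice by 0.011 ± 0.11. The pair minus Apc+inert was -0.22 ± 0.25 in LSL-Cas9 mice (15 mice; adjusted p = 0.722, permutation test). The interaction there was -0.087 ± 0.29 (14 mice; adjusted p = 0.986, permutation test), where 3.42% of steps and 0% of interactions passed.

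The second question was how many tumours each class formed. Numbers were taken as log2 of the tumours of a class over inert/inert tumours within the mouse and set against KT mice, where the same ratio measures the make-up of the virus pool. In H11-Cas9 mice both Apc+inert and Apc+Rnf43 tumours were fewer than their share of the pool, Rnf43+inert tumours did not pass the test, and the pair did not differ detectably from Apc+inert. Fewer tumours starting and more tumours below the size limit cannot be told apart here.

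In the 9 KT mice the log2 ratio of Apc+Rnf43 to inert/inert tumours ran from 0.0074 to 0.34 with a median of 0.19. In the H11-Cas9 mice it ran from -1.47 to 0.63 with a median of -0.52. The groups overlapped little: 42 of 45 H11-Cas9 mice lay below the lowest KT mouse, and mouse 38, with its 5 inert/inert tumours, was the highest. The difference was -0.71 ± 0.074 (0.610-fold, 95% interval 0.541 to 0.687), with an adjusted p of 4.39e-05 in a permutation test of mouse labels, where 55.1% of the 136 pairs passed.

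Apc+inert tumours fell to 0.629-fold of the KT share (-0.67 ± 0.069; adjusted p = 8.5e-05, permutation test; 42 of 45 mice below the lowest KT mouse), where 41.2% of single genes passed. Rnf43+inert tumours were at 0.902-fold (-0.15 ± 0.065), with an adjusted p of 0.328 in the permutation test and 0.0410 when it was studentised. Adding Rnf43 to Apc left -0.044 ± 0.088 between the pair and Apc+inert (95% interval -0.25 to 0.16; adjusted p = 0.864, permutation test). Adding Apc to Rnf43 gave -0.56 ± 0.073 (0.676-fold; adjusted p = 0.00142, permutation test), where 33.1% of steps passed. The number of the pair was within error of the product of the singles, with an interaction of 0.10 ± 0.11 (adjusted p = 0.978, permutation test), where 7.35% of interactions passed. The fall of the pair was -0.77 ± 0.10 in mice of the 100000-cell total and -0.65 ± 0.11 in mice of the 300000-cell total, each against KT mice of that total. At the lower total the KT mice were named SL and the H11-Cas9 mice LA, so genotype and letters cannot be told apart there. In mice of the 300000-cell total, the step from Rnf43+inert was -0.55 ± 0.11 with an adjusted p of 0.0766 (permutation test against 4 KT mice).

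**Figure D4:**
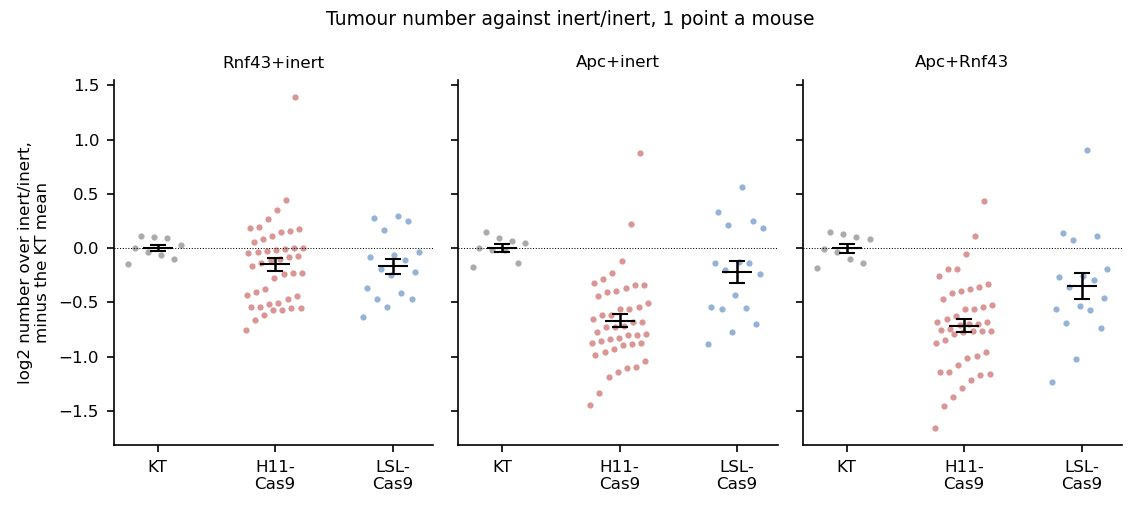
Tumour number over inert/inert within a mouse, on the log2 scale and minus the KT mean (y axis), 1 point a mouse, bars for the mean ± SE. Apc+inert (-0.67) and Apc+Rnf43 (-0.71) sit well below 0 in H11-Cas9 mice, and Rnf43+inert (-0.15) sits near it.

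In LSL-Cas9 mice no number of these classes passed the test over all pairs or genes. Apc+Rnf43 was at 0.785-fold of the KT share (-0.35 ± 0.13, 17 mice; unadjusted p = 0.0478, adjusted p = 0.123 in the permutation test and 0.0274 when studentised), where 24.3% of pairs passed. Apc+inert was at 0.858-fold (-0.22 ± 0.11, adjusted p = 0.238) and Rnf43+inert at 0.890-fold (-0.17 ± 0.078, adjusted p = 0.225), where 23.5% of single genes passed in the permutation test. The pair minus Apc+inert was -0.13 ± 0.13 and the pair minus Rnf43+inert -0.18 ± 0.096, where 14.7% of steps passed. The number interaction was 0.040 ± 0.14, with 0% of 136 called and 5 at an unadjusted p under 0.05 in the permutation test. Among tumours of at least 200 cells, Apc+inert was at -0.73 (adjusted p = 0.0218, permutation test) and Rnf43+inert at -0.51 (adjusted p = 0.00728, permutation test), while the pair was at -0.63 ± 0.25 (adjusted p = 0.0913, permutation test). With constructs that repeat 1 guide kept, the pair was at -0.21 ± 0.13 (adjusted p = 0.383, permutation test).

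Both classes with an Apc guide were fewer in H11-Cas9 than in LSL-Cas9 mice, with the difference itself tested. H11-Cas9 minus LSL-Cas9 was -0.36 ± 0.13 for Apc+Rnf43 (adjusted p = 0.0208 over 6 effects, studentised permutation test) and -0.45 ± 0.12 for Apc+inert (adjusted p = 0.00444, studentised permutation test). For Rnf43+inert the difference was 0.020 ± 0.092 (adjusted p = 0.840). Among mice of the 300000-cell total (20 and 17), it was -0.32 ± 0.14 for the pair (adjusted p = 0.0583, studentised permutation test) and -0.50 ± 0.13 for Apc+inert (adjusted p = 0.00282). The letters of the mouse names cannot be told apart from this genotype. No geometric mean size effect differed between the Cas9 groups after adjustment, the nearest being Rnf43+inert at 0.19 ± 0.083 (unadjusted p = 0.0282, adjusted p = 0.169, studentised permutation test), and the other size measures were not compared between these groups.

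Each gene had 2 guides, and the 8 guide combinations of Apc+Rnf43 were each followed. In H11-Cas9 mice the loss of tumours was stronger with Apc_V2 than with Apc_V1. Summed over mice and set against KT, the 4 combinations with Apc_V2 stood at 0.477 to 0.646 of the KT share, from Rnf43_V1+Apc_V2 (106 tumours) to Apc_V2+Rnf43_V1 (79 tumours). The 4 with Apc_V1 stood at 0.671 to 0.892, from Rnf43_V2+Apc_V1 (111 tumours) to Rnf43_V1+Apc_V1 (99 tumours), and the 2 sets did not overlap. Beside an inert guide the values were 0.490 for Apc_V2 and 0.834 for Apc_V1. Within mice the log2 ratio of V1 to V2 tumours exceeded that of KT by 0.65 ± 0.13 in the pair (adjusted p = 0.00836 over 7 contrasts, permutation test) and by 0.80 ± 0.10 in Apc+inert (adjusted p = 0.00126, permutation test). In LSL-Cas9 mice the same ratios were 0.053 ± 0.18 and 0.39 ± 0.14 (adjusted p = 0.994 and 0.378, permutation test), and the 8 combinations ran from 0.736 to 0.972, with those of the 2 Apc guides overlapping.

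**Figure D5:**
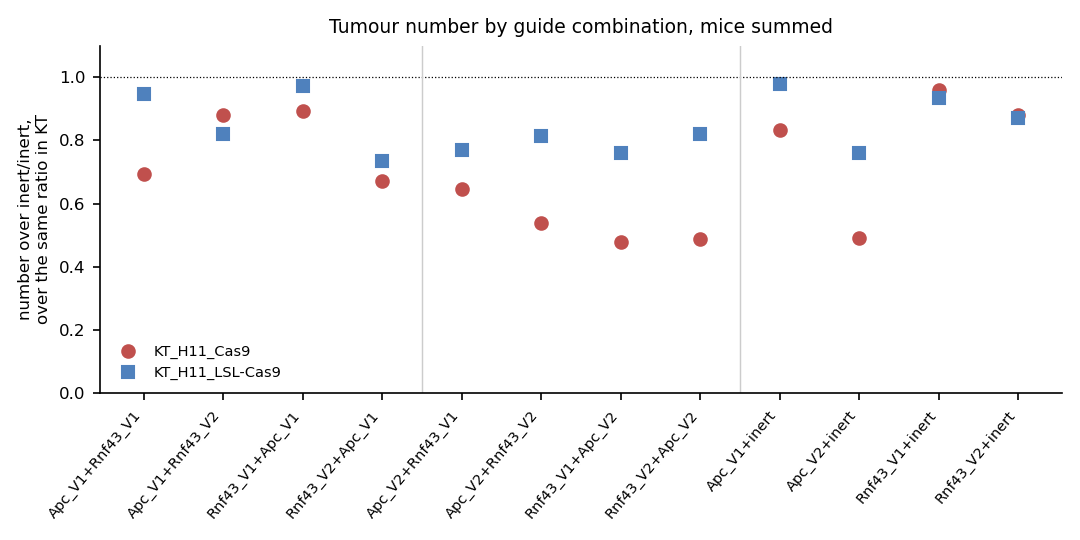
Tumour number over inert/inert, divided by the same ratio in KT and summed over mice (y axis), for the 8 Apc+Rnf43 combinations, written in the order of places, and for the single guides beside an inert guide. In H11-Cas9 mice the 4 combinations with Apc_V2 (0.477 to 0.646) lie below the 4 with Apc_V1 (0.671 to 0.892).

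No difference by the Rnf43 guide or by the order of the guides was detectable. In H11-Cas9 mice the number contrast between Rnf43_V1 and Rnf43_V2 within the pair was 0.12 ± 0.10 and that between Apc in place 1 and place 2 was 0.16 ± 0.12 (adjusted p = 0.641 and 0.599, permutation test). Size within the pair differed by 0.15 ± 0.11 for Apc in place 1 against place 2, by 0.011 ± 0.12 for Apc_V1 against Apc_V2 and by 0.14 ± 0.13 for Rnf43_V1 against Rnf43_V2 (adjusted p from 0.631 to 0.920, permutation test). Among single combinations the size difference from inert/inert ran from -0.039 ± 0.16 (Apc_V2+Rnf43_V2) to 0.44 ± 0.24 (Apc_V2+Rnf43_V1), a spread near the errors. The 5 largest pair tumours of H11-Cas9 mice came from 5 different combinations, 3 of them with Apc_V2.

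Constructs with 2 different guides against the same gene served as a further reference for carrying 2 gene-targeting guides. Whether inert guides cut was not measured, so these constructs do not isolate the effect of a second cut. Apc+Apc tumours were 62 in H11-Cas9 mice against 230 in KT mice, a fall of 1.34 ± 0.17 on the log2 scale (0.395-fold; adjusted p = 0.000767, permutation test) beside 0.610-fold for Apc+Rnf43, a difference that was not tested. No H11-Cas9 mouse held 5 such tumours, so their size was not tested there. Rnf43+Rnf43 tumours were at 0.914-fold (adjusted p = 0.576, permutation test), and their size exceeded inert/inert by 0.11 ± 0.074 (41 mice; adjusted p = 0.183, permutation test). By arithmetic mean, Rnf43+Rnf43 exceeded inert/inert by 0.24 ± 0.22 and was -0.58 ± 0.24 from Rnf43+inert in the same mice (unadjusted p = 0.0195, adjusted p = 0.0520, permutation test). At the 90th percentile it was -0.48 ± 0.24 from Rnf43+inert (25 mice; adjusted p = 0.321, permutation test). In H11-Cas9 mice these distances from the single are of the same sign as those of Apc+Rnf43, and neither passed. In LSL-Cas9 mice the distances of Rnf43+Rnf43 from Rnf43+inert lay above 0. They were 0.024 ± 0.22 by arithmetic mean (17 mice) and 0.33 ± 0.35 at the 90th percentile (8 mice; adjusted p = 0.928 and 0.677, permutation test).

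Among the other pairs that hold one of these genes, Apc+Rnf43 ranked low to middling in size. By geometric mean in H11-Cas9 mice it was 9th of 11 Apc pairs tested, 5 of which passed as larger than inert/inert, just after Apc+p53 (0.15 ± 0.069, 44 mice) and just before Apc+Ccnl2 (0.076 ± 0.12, 15 mice). p53 is the tumour suppressor that answers DNA damage, and Ccnl2 is a cyclin of RNA splicing. Among 15 Rnf43 pairs it ranked 8th, with 6 larger than inert/inert, between Kmt2b+Rnf43 (0.11 ± 0.25, 8 mice) and Rb1+Rnf43 (0.086 ± 0.064, 45 mice). Kmt2b is a histone methyltransferase and Rb1 restrains entry into the cell cycle. Over all 92 pairs 39 passed as larger (43.5% passed in either direction), so both counts lay near that background. These neighbours differed from Apc+Rnf43 by less than their errors. In number, 8 of 16 Apc pairs fell below the KT share in H11-Cas9 mice and 0 rose, and 6 of 16 Rnf43 pairs fell and 2 rose, beside 64 of all 136 pairs that fell and 11 that rose, and Apc+Rnf43 ranked 9th and 11th from the top.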

How the data were processed

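Tumour barcodes and guide pairs were sequenced from lung DNA of 74 mice. The deposited table gives, for each tumour, reads as a count and cells as a signal, which the authors estimated from spike-in barcodes. Within a mouse, cells were reads times 1 factor. The aligner and read filters were not given in the sources used here. Groups came from the genotype label. Spike-in entries (288) and 6757 tumours whose construct repeats 1 guide were dropped.

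Size effects were differences in mean log2 cells within mice having at least 5 tumours of each class (10 for the 90th percentile), tested by 2-sided sign-flip permutation, exact up to 16 mice and otherwise with 100000 resamples. Gene pairs tested in at least 6 mice were adjusted together by the Benjamini-Hochberg method, with a threshold of 0.05. Numbers used a pseudocount of 0.5 and label permutation against KT, in mice with at least 5 inert/inert tumours. Mice are the replicates, and p-values measure the spread between them. Scripts were tested on simulated data. The members, lists and tests were chosen with earlier results of these data known. Named pairs were the neighbours of Apc+Rnf43 by rank. Alternatives were minimum cells, other summaries, weights, inert subsets, pseudocounts, spike-in totals and left-out mice. The 1000- and 10000-cell shares, arithmetic means within each spike-in total, mice named LA and leaving out mouse 38 were chosen after seeing the data. Tools were Python 3.11.15, numpy 2.4.6, scipy 1.17.1, pandas 2.3.3 and, for plots, matplotlib 3.10.9. One allele shared by all groups is not reported here.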

Additional observations from a re-analysis of the deposited data

Results flagged for a closer look

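In KT mouse 1 the geometric mean of Rnf43+inert tumours was 652 cells, far from the other 8 KT mice, whose values ran up from 212. It was the only value of 22 member quantities in KT mice to stand so far apart, and chance gives about 1 in 20; its other classes were also large (576 cells for inert/inert). Tumour number over inert/inert was lower in H11-Cas9 than in LSL-Cas9 mice by -0.36 ± 0.13 for Apc+Rnf43, by -0.45 ± 0.12 for Apc+inert, and by -0.38 ± 0.11 for Apc+Rnf43 over Rnf43+inert (mean ± SE, log2 scale, 45 and 17 mice). These differences passed a studentised permutation test after adjustment (adjusted p = 0.0208, 0.00444 and 0.00444).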

How the results depend on the processing

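Values are log2 differences, and adjusted p-values are from the permutation tests named in the report. In H11-Cas9 mice, counting only tumours of at least 200 cells gave 0.30 for the size of Apc+Rnf43 against inert/inert and -0.40 for the interaction, both then passing, and 0.048 for the pair against Rnf43+inert, with the sign turned. The arithmetic mean gave 0.45 and -1.21 for the pair and the interaction, both passing, and keeping constructs that repeat 1 guide gave an interaction of -0.27 (adjusted p = 0.0135). The median gave -0.038 for the pair, -0.016 for Apc+inert and 0.028 for Rnf43+inert. Requiring 10 tumours gave 0.13 for Apc+inert, as did leaving out mouse 38 (0.13), and safe guides alone as the inert class gave 0.082 for Apc+inert and 0.070 for Rnf43+inert, none passing. With NT and EGFP guides alone, in 11 mice, the pair was -0.57 from Apc+inert (adjusted p = 0.0250). In mice of the 300000-cell total sizes were -0.028 for the pair, -0.0049 for Apc+inert and 0.081 for Rnf43+inert, and in mice of the 100000-cell total the pair was 0.0018 from Rnf43+inert. For the 90th percentile, the 75th gave -0.18 (interaction), 0.027 (Apc+inert), 0.19 (Rnf43+inert) and 0.030 (pair against Apc+inert). Mice of the 300000-cell total gave -0.43, 0.22 and 0.29 for the first 3, and mice of the 100000-cell total gave 0.41 for Rnf43+inert (adjusted p = 0.0549).

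In LSL-Cas9 mice the sizes lay near 0 and signs turned often. At 200 cells or more the pair was 0.32, Rnf43+inert 0.11, the pair against Rnf43+inert 0.20, and Apc+inert 0.53, which passed. With 10 tumours the pair was 0.066, 0.012 against Apc+inert and 0.079 against Rnf43+inert, with an interaction of 0.073. The median gave -0.21 for Apc+inert, 0.090 for the pair against Apc+inert and 0.18 for the interaction. The arithmetic mean gave 0.37 for the pair, 0.27 for Rnf43+inert, 0.10 for the pair against Rnf43+inert and, all passing, 1.30 for Apc+inert, -0.88 for the pair against Apc+inert and -1.20 for the interaction. Weighting mice by tumours gave 0.0027 for the pair, 0.011 against Rnf43+inert and 0.0071 for the interaction. Keeping repeated guides gave 0.0032 for the pair and 0.014 for Rnf43+inert, and NT and EGFP guides alone gave the pair 0.24 against Apc+inert and 0.13 against Rnf43+inert. The 75th percentile gave an interaction of 0.22, -0.050 for Apc+inert and 0.11 for the pair against Apc+inert, and the 90th with 5 tumours gave -0.064 for the pair. Against KT mice of the same total the size of the pair was 0.018, and the contrast of the Apc guides within the pair was -0.17 with 5 tumours.

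For tumour number in H11-Cas9 mice, studentising gave Rnf43+inert -0.15 (adjusted p = 0.0410). In mice of the 300000-cell total the pair was -0.55 against Rnf43+inert, not passing, and 0.025 against Apc+inert, and in those of them named LA it was -0.50 and 0.088. In LSL-Cas9 mice, tumours of at least 200 cells gave -0.73 for Apc+inert and -0.51 for Rnf43+inert, both passing, and 0.10 for the pair against Apc+inert; studentising gave the pair -0.35 (adjusted p = 0.0274), and keeping repeated guides gave an interaction of -0.060. Leaving out each KT mouse changed no number call, and the fall of the pair in H11-Cas9 mice stayed between -0.74 and -0.69. The other 305 values kept their direction and, where there was a test, their side of the threshold; numbers summed over mice had none. Apart from the size minimum and the smaller sets of mice, which change what enters, the cause was not tested.

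No paired analysis was possible because the mice carry no replicate number in the labels; differences within a mouse already share the mouse. NT and EGFP guides alone were not run for numbers, since too few mice held 5 inert/inert tumours of these guides, and the 100000-cell total has no LSL-Cas9 mouse. A median of 17 Apc+Rnf43 tumours a mouse limits each mouse's value, and tumours below the listed minimum were not counted.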
